A study of Homo sapiens with 60 samples.

Results

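Serum response factor and 9 genes of the actin contractile apparatus were followed across SW1783 cells, an established human astrocytoma line, exposed for 24 h to ethanol extracts of tonic herbs and herbal formulas. The 10 genes are SRF, ACTA2, TAGLN, CNN1, MYL9, TPM1, TPM2, CALD1, VCL and ACTB. They were chosen by name, matched to Ensembl identifiers and found once each among the 60675 genes of the count table; all 10 passed the filter on low counts, as did 17676 genes in all. RNA was sequenced as paired-end, strand-marked libraries. The extracts were Astragali Radix (astragalus root) at 8.8, 44 and 220 µg/mL, and at 20, 100 and 500 µg/mL Cinnamomi Cortex (cinnamon bark) and the formulas Sibjeondaebo-tang, Palmul-tang, Samul-tang and Sagunja-tang, with 3 libraries in each of these 18 groups. Rehmanniae Radix Preparata (prepared rehmannia root) at 20, 100 and 500 µg/mL had 1 library per dose. The common control was 3 libraries of DMSO vehicle. The doses are called low, medium and high; by the series text, an extract with an IC20 under 500 µg/mL was given at its IC20 and at dilutions of that concentration. Palmul-tang is traditionally made from all herbs of Samul-tang together with all those of Sagunja-tang; Palmul-tang with astragalus root and cinnamon bark gives Sibjeondaebo-tang. The sample labels give 0.1% DMSO and the series text 2%.

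SRF is a MADS-box transcription factor that binds a short DNA element, the CArG box, in front of many cytoskeletal and muscle genes. In the contractile branch of the pathway its coactivators are the myocardin-related factors MRTFA and MRTFB. Monomeric actin holds these in the cytoplasm; when actin assembles into filaments they enter the nucleus, and SRF then raises the genes for actin itself and for the proteins that bind, stabilise or contract the filaments. In another branch, ternary complex factors such as ELK1 bring SRF to immediate early genes such as FOS after mitogen signals. In brain tumour cells and in reactive or cultured astrocytes, actin and its binding proteins build stress fibres and adhesions, and several genes named for smooth muscle are active in such cultures.

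SRF is itself a textbook target of its own product. The RefSeq promoter table of GRCh38.p14 held 13 promoters for 7 of the 10 genes; those of ACTB, TAGLN and MYL9 were not matched. The 250 bases before the transcription start are shown for SRF and for ACTA2, on each gene's own strand. SRF, the regulator, fell at the high dose in 5 extracts. ACTA2, the actin gene of smooth muscle, fell in those and in Astragali Radix. Capitals mark matches to the CArG box, a box of 10 bases with CC at the 5′ end, GG at the 3′ end and 6 bases of A or T between; in ACTA2 1 of the 6 inner letters was allowed to be another base. The box reads the same way on both strands, and overlapping matches were counted.
SRF, chr6:43171019-43171268, plus strand: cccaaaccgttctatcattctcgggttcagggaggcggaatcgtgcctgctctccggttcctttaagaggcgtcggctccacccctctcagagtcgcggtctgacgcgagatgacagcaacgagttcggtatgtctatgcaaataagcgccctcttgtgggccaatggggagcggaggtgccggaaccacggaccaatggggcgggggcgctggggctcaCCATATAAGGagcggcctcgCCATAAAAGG
ACTA2, chr10:88952774-88953023, minus strand: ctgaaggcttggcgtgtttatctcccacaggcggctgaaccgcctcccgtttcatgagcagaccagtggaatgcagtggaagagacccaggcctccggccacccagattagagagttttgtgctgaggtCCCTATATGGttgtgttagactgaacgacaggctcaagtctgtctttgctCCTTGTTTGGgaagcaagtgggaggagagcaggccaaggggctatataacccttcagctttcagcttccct
SRF held 2 boxes, at -30 to -21 and at -10 to -1 from the RefSeq start. ACTA2 held no full box and 2 boxes with 1 inner letter off, at -121 to -112 and at -71 to -62. CALD1 held 1 such box, CCTAAAGAGG, at -26 to -17 of 1 of its 4 promoters. The remaining promoters, those of CNN1, TPM1, TPM2 and VCL and the alternative ones of SRF, ACTA2 and CALD1, held neither form. Of 35116 promoters in the table, 1.29% held a full box in the 300 bases around the start and 8.13% held one with at most 1 inner letter off. Many SRF sites lie outside such a window.

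Library totals lay between 19793387 and 37152410 estimated counts, with 24212214 to 26167537 in the vehicle libraries. The labels do not say whether libraries of a group came from separate cultures, so p-values measure the spread between these libraries, which may be technical. Replicates 1 and 2 of Astragali Radix at the low dose stood apart: transcript length and GC content took up 16.6% and 38.2% of the variance of their deviations over genes, against 0.700% in replicate 3. All 57 libraries of replicated groups share 1 estimate of the spread, and these 2 libraries widen it, so counts of called genes are given with all libraries and then without these 2. Every vehicle library carries a sample code that no extract library shares, so extract and code cannot be told apart against vehicle; high and low doses of one extract share a code. Of the glial markers, GFAP, S100B, AQP4 and ALDH1L1 were at or below 0.33 CPM (read counts scaled to library size) in every library, and SLC1A2 averaged 0.246 CPM. VIM averaged 4488 CPM, SOX9 66.1, SLC1A3 23.1 and NES 6.09 CPM. Of the smooth muscle markers, SMTN averaged 106 CPM, ACTG2 5.67, LMOD1 1.31, MYH11 0.75 and DES 0.0278 CPM. Of the fibroblast and pericyte markers, COL1A1 averaged 3873 CPM, PDGFRB 55.2, LUM 30.2, DCN 14.9 and RGS5 2.53 CPM.

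Scaled by median annotated transcript length, the 10 genes covered a wide range in vehicle cells. ACTB, cytoplasmic beta-actin, led with 5918 CPM per kb, followed by the tropomyosins TPM1 with 626 and TPM2 with 406 CPM per kb, which run along actin filaments. TAGLN (transgelin, an actin-bundling protein) had 273 CPM per kb, CALD1 (caldesmon, an actin-binding brake on myosin) 187, MYL9 (a regulatory myosin light chain) 147 and ACTA2 (smooth muscle alpha-actin) 109. VCL (vinculin, which ties actin to adhesions) had 68.4 CPM per kb and SRF 20.2, while CNN1 (calponin, a smooth muscle actin-binding protein) was nearly silent at 2.39 CPM per kb. Estimated counts of ACTA2, TAGLN and VCL were not whole in 59 of 60 libraries and those of TPM1 in all 60, so part of their reads was divided between genes. Exons of ACTA2 overlap FAS and ACTA2-AS1 on the opposite strand, those of TAGLN overlap PCSK7, those of TPM1 overlap TPM1-AS, and those of VCL overlap AP3M1; the strand setting of the counting is not given in the sources used here, and levels of these 4 genes are uncertain to that degree.

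At the high dose, the contractile genes fell below vehicle in the cells given cinnamon bark or any of the 4 formulas, by log2 differences with a median over the 10 genes of -0.41 in Cinnamomi Cortex, -0.53 in Sagunja-tang, -0.54 in Samul-tang, -0.54 in Palmul-tang and -0.43 in Sibjeondaebo-tang. The medians over all 17676 genes were between -0.00 and 0.01. With edgeR's quasi-likelihood test and a Benjamini-Hochberg adjusted p below 0.05, 9 of 10 genes fell in Cinnamomi Cortex (8.56% of all genes fell), 10 in Sagunja-tang (11.6%), 10 in Samul-tang (10.3%), 10 in Palmul-tang (10.2%) and 9 in Sibjeondaebo-tang (11.9%); none rose. TPM2 missed the threshold in Cinnamomi Cortex and in Sibjeondaebo-tang, and without the 2 libraries that stand apart all 10 fell in each of the 5 extracts, while 18.9%, 16.9%, 16.8% and 17.8% of all genes then fell in the 4 formulas and 32.8% passed in either direction in Cinnamomi Cortex, where 16.9% rose. These comparisons use the same 3 vehicle libraries and are therefore not independent of each other. Mitochondrial genes took 5.51 to 6.92% of counts in the 15 high-dose libraries of these 5 extracts, against 7.55 to 8.04% in the vehicle libraries, and no extract library of any dose exceeded 7.18%; the part of this difference in the comparisons with vehicle was not tested. In bulk RNA, a gene's lower level per cell and fewer cells with that gene cannot be told apart.

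**Figure D1:**
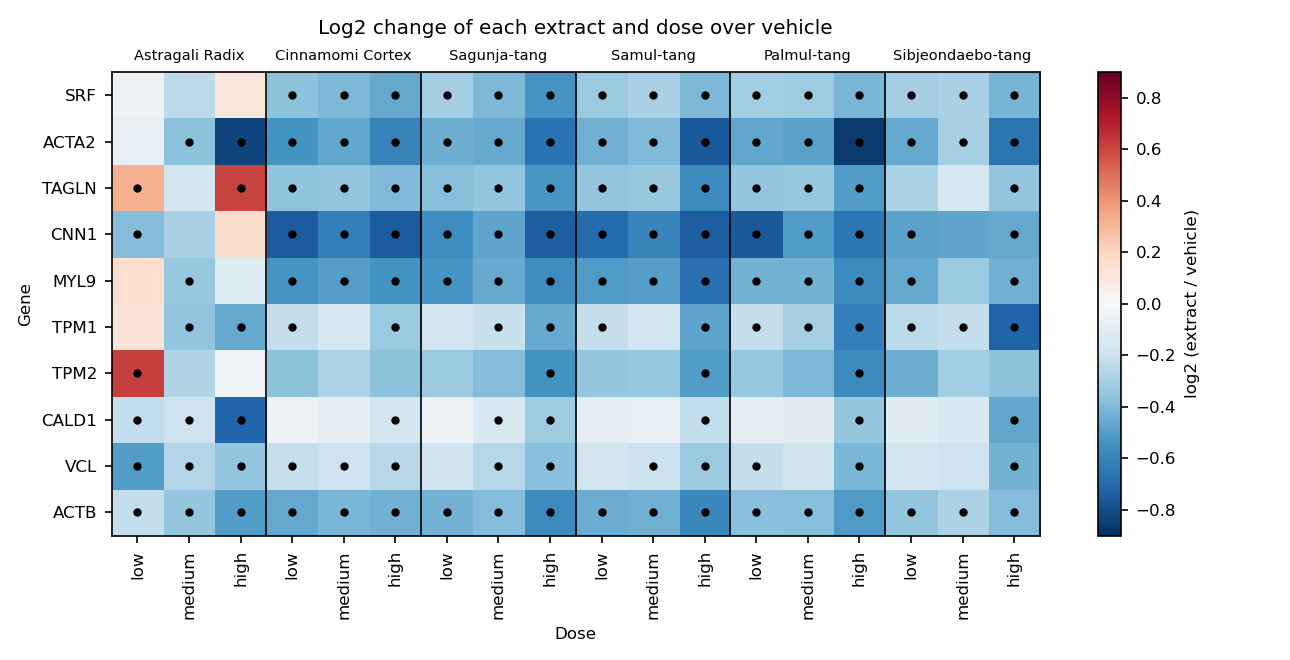
Log2 difference from vehicle of the 10 genes (rows) in each extract and dose (columns), with blue for lower, red for higher and a dot where the edgeR adjusted p was below 0.05 with all libraries. Blue fills the columns of 5 extracts, while TAGLN is red in Astragali Radix at the high dose, and Astragali Radix at the low dose holds the 2 libraries that stand apart.

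SRF itself fell in each of the 5 extracts. Its levels at the high dose were 61.7, 63.0 and 60.8 CPM in Cinnamomi Cortex, 55.0, 57.5 and 63.7 in Sagunja-tang, 63.6, 65.0 and 64.5 in Samul-tang, 60.5, 64.9 and 66.6 in Palmul-tang and 64.5, 63.3 and 62.7 in Sibjeondaebo-tang, against 85.2, 82.8 and 87.1 CPM in vehicle. No extract library reached a vehicle library. The difference was widest in Sagunja-tang (log2 -0.53 ± 0.09, adjusted p = 1.99e-05) and narrowest in Samul-tang (log2 -0.40 ± 0.09, adjusted p = 0.00115), by edgeR.

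Of the 2 actins, the abundant ACTB was at 7010.0, 6921 and 7651 CPM in Sagunja-tang and 8654, 7604 and 8299 CPM in Sibjeondaebo-tang, against 10891, 10879 and 10402 CPM in vehicle. The 15 high-dose libraries of the 5 extracts spanned 6761 to 8654 CPM and stayed below vehicle, with log2 differences between -0.58 in Samul-tang and -0.39 in Sibjeondaebo-tang. ACTA2 had 99.6, 98.2 and 94.0 CPM in Cinnamomi Cortex, 91.1, 93.0 and 94.9 in Sagunja-tang, 86.8, 83.1 and 91.2 in Samul-tang, 78.9, 80.3 and 83.6 in Palmul-tang and 96.3, 88.5 and 95.5 in Sibjeondaebo-tang, against 157, 143 and 142 CPM in vehicle. All 15 values lay well under the lowest vehicle library. Palmul-tang gave the largest fall of ACTA2, 1.82-fold (log2 -0.86 ± 0.06, adjusted p = 1.38e-14), and Cinnamomi Cortex the smallest of the 5, 1.51-fold (log2 -0.60 ± 0.06, adjusted p = 1.13e-09), by edgeR.

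The tropomyosins differed from each other. TPM1 had 424, 386 and 441 CPM in Sibjeondaebo-tang and 546, 549.6 and 545 CPM in Cinnamomi Cortex, against 683, 692 and 691 CPM in vehicle, and the groups did not overlap. Its fall was 1.65-fold in Sibjeondaebo-tang (log2 -0.72 ± 0.06, adjusted p = 5.51e-12) and 1.26-fold in Cinnamomi Cortex (log2 -0.33 ± 0.06, adjusted p = 1.87e-04), by edgeR. TPM2 had 328, 327 and 312 CPM in Palmul-tang and 376, 348 and 391 CPM in Sibjeondaebo-tang, against 469.9, 504 and 468 CPM in vehicle. Its libraries did not overlap those of vehicle either, but its estimated error was the largest of the abundant genes: by edgeR the Palmul-tang difference passed (log2 -0.58 ± 0.17, adjusted p = 0.0109) and the Sibjeondaebo-tang one did not (log2 -0.37 ± 0.17, adjusted p = 0.109; without the 2 libraries log2 -0.36 ± 0.06, adjusted p = 5.99e-07). The Samul-tang call for TPM2 (adjusted p = 0.0302) was lost whenever any of the 6 libraries compared was left out, and the Sagunja-tang one without vehicle replicate 2 or high replicate 1 (adjusted p = 0.0618 and 0.0696).

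Among the filament-binding and motor genes, MYL9 was 169 to 229 CPM over the 15 high-dose libraries, against 286, 270.2 and 292 CPM in vehicle, and fell most in Samul-tang (log2 -0.67 ± 0.12, adjusted p = 2.50e-05, edgeR). TAGLN was 219 to 282 CPM over the same libraries, against 337, 342 and 326 CPM in vehicle, and likewise fell most in Samul-tang (log2 -0.57 ± 0.10, adjusted p = 5.20e-05, edgeR); its Sibjeondaebo-tang call was lost without high replicate 2 (adjusted p = 0.0887). Neither gene had an extract library within the vehicle range. CALD1 moved least among the extracts other than Sibjeondaebo-tang: it had 440.2, 446 and 448 CPM in Cinnamomi Cortex, a fall of 1.12-fold (log2 -0.17 ± 0.05, adjusted p = 0.00876, edgeR), against 493, 499 and 505 CPM in vehicle, a call that was lost without vehicle replicate 3 or high replicate 1 (adjusted p = 0.0543 and 0.0544). In Sibjeondaebo-tang CALD1 had 365, 359 and 358 CPM, a fall of 1.38-fold (log2 -0.47 ± 0.05, adjusted p = 8.88e-11, edgeR). VCL was 289 to 348 CPM over the 15 libraries, against 414, 408 and 407 CPM in vehicle, with log2 differences between -0.42 in Sibjeondaebo-tang and -0.25 in Cinnamomi Cortex.

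CNN1 rested on few reads. Its levels were 2.34, 2.17 and 2.45 CPM in Sagunja-tang and 2.38, 3.20 and 2.83 CPM in Sibjeondaebo-tang, against 3.96, 3.20 and 4.56 CPM in vehicle. The Sagunja-tang libraries lay under all vehicle libraries (log2 -0.74 ± 0.16, adjusted p = 4.95e-04, edgeR), whereas those of Sibjeondaebo-tang reached the lowest vehicle library. The Sibjeondaebo-tang call (adjusted p = 0.0291, edgeR) was lost when any of 4 of the 6 libraries compared was left out.

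**Figure D2:**
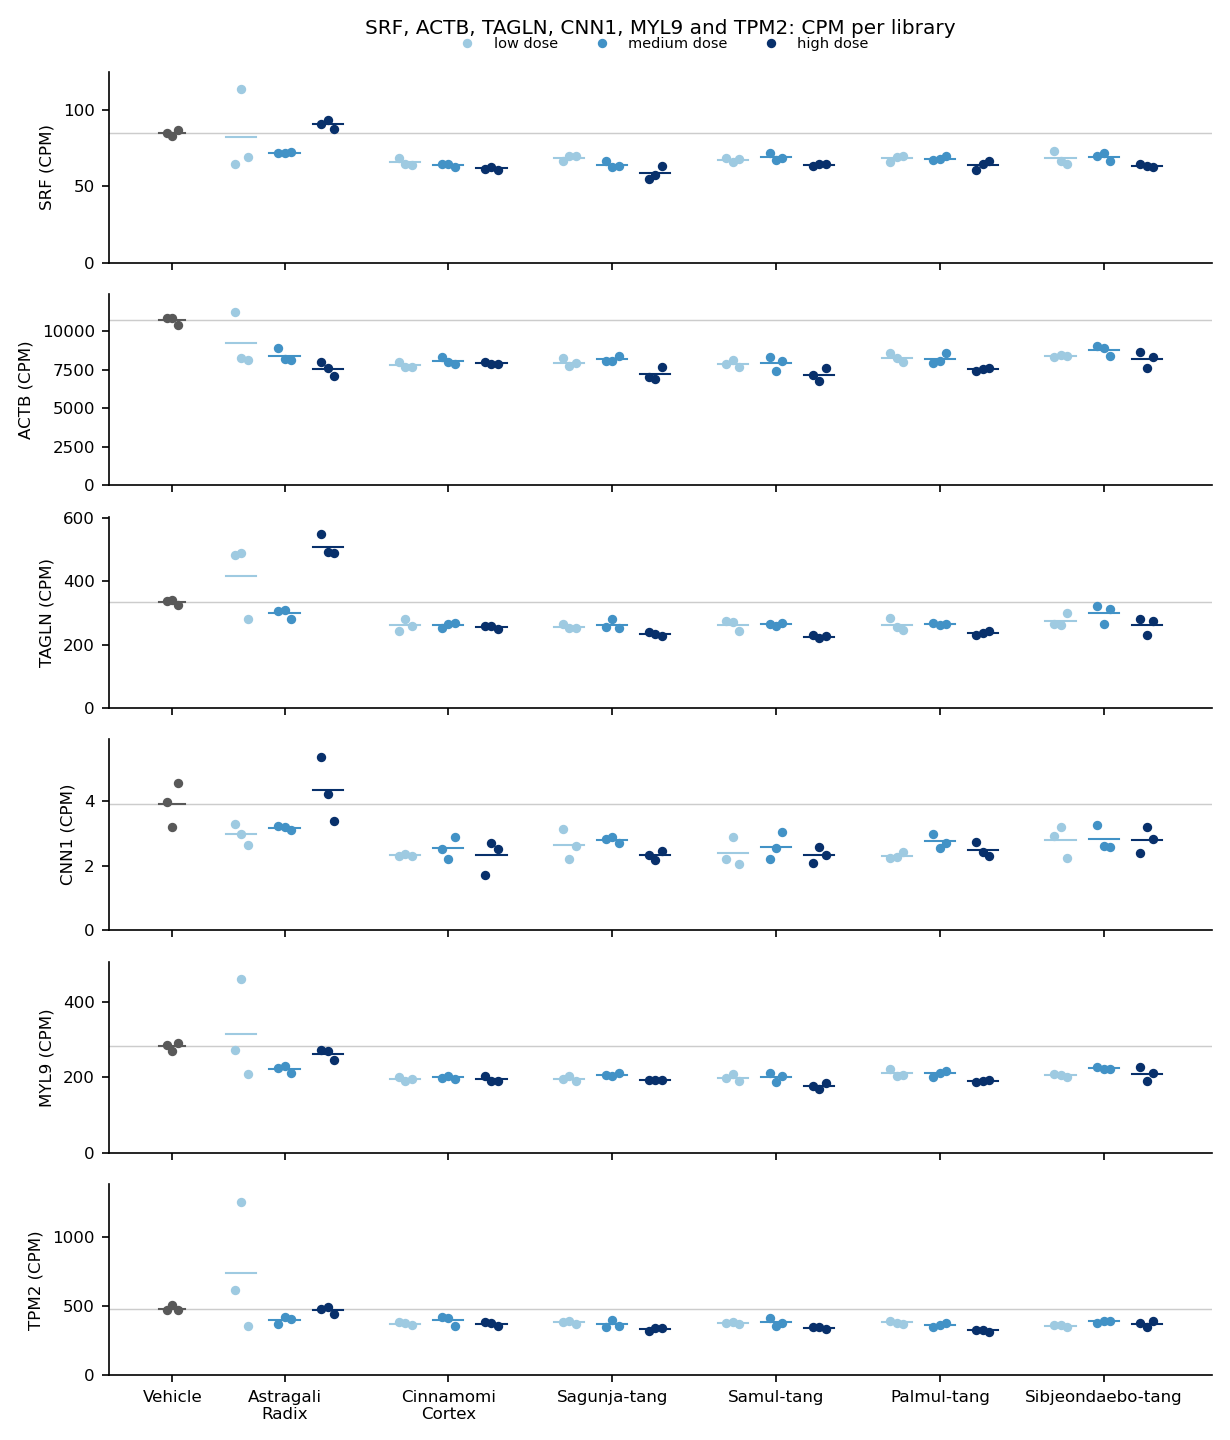
CPM of SRF, ACTB, TAGLN, CNN1, MYL9 and TPM2 in each library, with vehicle at the left and then low, medium and high dose of each extract; short lines are group means and the grey line is the vehicle mean. In the 5 extracts other than Astragali Radix the points lie mostly below the grey line from the low dose on.

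Much of the difference from vehicle was already present at the low dose. At 20 µg/mL the median log2 difference over the 10 genes was -0.37 in Cinnamomi Cortex, -0.36 in Sagunja-tang, -0.35 in Samul-tang, -0.34 in Palmul-tang and -0.33 in Sibjeondaebo-tang, with all-gene medians between 0.00 and 0.02. Of the 10 genes, 8 fell in Cinnamomi Cortex (7.12% of all genes fell), 6 in Sagunja-tang (8.03%), 7 in Samul-tang (6.37%), 8 in Palmul-tang (5.57%) and 6 in Sibjeondaebo-tang (5.47%), by edgeR, and none rose. Without the 2 libraries that stand apart the counts were 9, 9, 10, 10 and 10 in the same order, against backgrounds of 14.3%, 15.4%, 13.4%, 12.9% and 13.1%. Whether the difference at the low dose belongs to the extracts or to the sample code of the vehicle libraries cannot be told apart.

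SRF at the low dose was 68.6, 64.5 and 64.3 CPM in Cinnamomi Cortex, 68.6, 66.1 and 67.7 in Samul-tang and 66.0, 69.0 and 70.0 in Palmul-tang, against 85.2, 82.8 and 87.1 CPM in vehicle, with no overlap. Its calls at the low dose in the 4 formulas were lost in some fits that left out 1 library, whose adjusted p ranged over 0.0373 to 0.0777 in Sagunja-tang, 0.0271 to 0.0548 in Samul-tang, 0.0424 to 0.0869 in Palmul-tang and 0.0232 to 0.105 in Sibjeondaebo-tang (edgeR). ACTB was 8006, 7703 and 7665 CPM in Cinnamomi Cortex (log2 -0.46 ± 0.07, adjusted p = 4.29e-06, edgeR) and 8330.4, 8469 and 8370.4 CPM in Sibjeondaebo-tang (log2 -0.35 ± 0.07, adjusted p = 4.12e-04, edgeR), against 10891, 10879 and 10402 CPM in vehicle. MYL9 fell by a log2 difference of -0.53 in Cinnamomi Cortex and -0.53 in Sagunja-tang at the low dose, next to -0.54 and -0.56 at the high dose. CALD1 did not pass at the low dose in any of these 5 extracts with all libraries, its log2 differences being -0.05 in Cinnamomi Cortex, -0.05 in Sagunja-tang, -0.08 in Samul-tang, -0.09 in Palmul-tang and -0.10 in Sibjeondaebo-tang.

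At the medium dose, 100 µg/mL, 7 of 10 genes fell in Cinnamomi Cortex (7.17% of all genes fell), 9 in Sagunja-tang (7.31%), 7 in Samul-tang (6.88%), 7 in Palmul-tang (5.75%) and 4 in Sibjeondaebo-tang (3.45%), by edgeR, and none rose. Without the 2 libraries the counts were 10, 10, 9, 10 and 9 in the same order, while 14.3%, 14.8%, 13.9%, 13.0% and 9.77% of all genes fell. The Sibjeondaebo-tang count depends most on the handling of the spread: its 4 called genes were SRF (-0.29), ACTB (-0.29), ACTA2 (-0.30) and TPM1 (-0.22), and leaving out 1 library at a time left 1 to 3 calls. Several calls against vehicle below the high dose were lost in every fit that left out any single library: SRF and TPM1 in Sibjeondaebo-tang, CALD1 and TPM1 in Sagunja-tang and VCL in Cinnamomi Cortex and Samul-tang at the medium dose, and VCL in Cinnamomi Cortex and Palmul-tang at the low dose. The CNN1 and TAGLN calls at these doses were lost in at least 1 such fit in most extracts. Median log2 differences over the 10 genes at this dose ran from -0.39 in Sagunja-tang to -0.29 in Sibjeondaebo-tang.

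High and low doses of one extract share a sample code and involve no vehicle library, and there ACTA2, TPM1, CALD1 and VCL were the genes that passed with all libraries. With all libraries, ACTA2, TPM1 and CALD1 fell at the high dose in Sagunja-tang and in Palmul-tang (1.71% and 1.77% of all genes fell), ACTA2 and TPM1 in Samul-tang (0.662%), and all 4 in Sibjeondaebo-tang (10.7%). In Cinnamomi Cortex none of the 10 passed by edgeR at an adjusted p below 0.05 (0.198% of all genes fell), and none of them rose in any of these 5 extracts. Without the 2 libraries 7 of 10 fell in Sagunja-tang, 6 in Samul-tang, 7 in Palmul-tang, 5 in Sibjeondaebo-tang and 1, CALD1, in Cinnamomi Cortex, against backgrounds of 6.75%, 3.24%, 5.58%, 18.1% and 1.26% of all genes. The added calls were among SRF, ACTB, TPM2, TAGLN, MYL9, CALD1 and VCL. Every high-dose library lay below every low-dose library for 8 of the 10 genes in Sagunja-tang, 9 in Samul-tang, 8 in Palmul-tang and 5 each in Sibjeondaebo-tang and Cinnamomi Cortex, as for 15.3%, 11.4%, 15.1%, 22.7% and 9.48% of all genes; ACTA2, TPM1, CALD1 and VCL were among them in each extract.

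**Figure D3:**
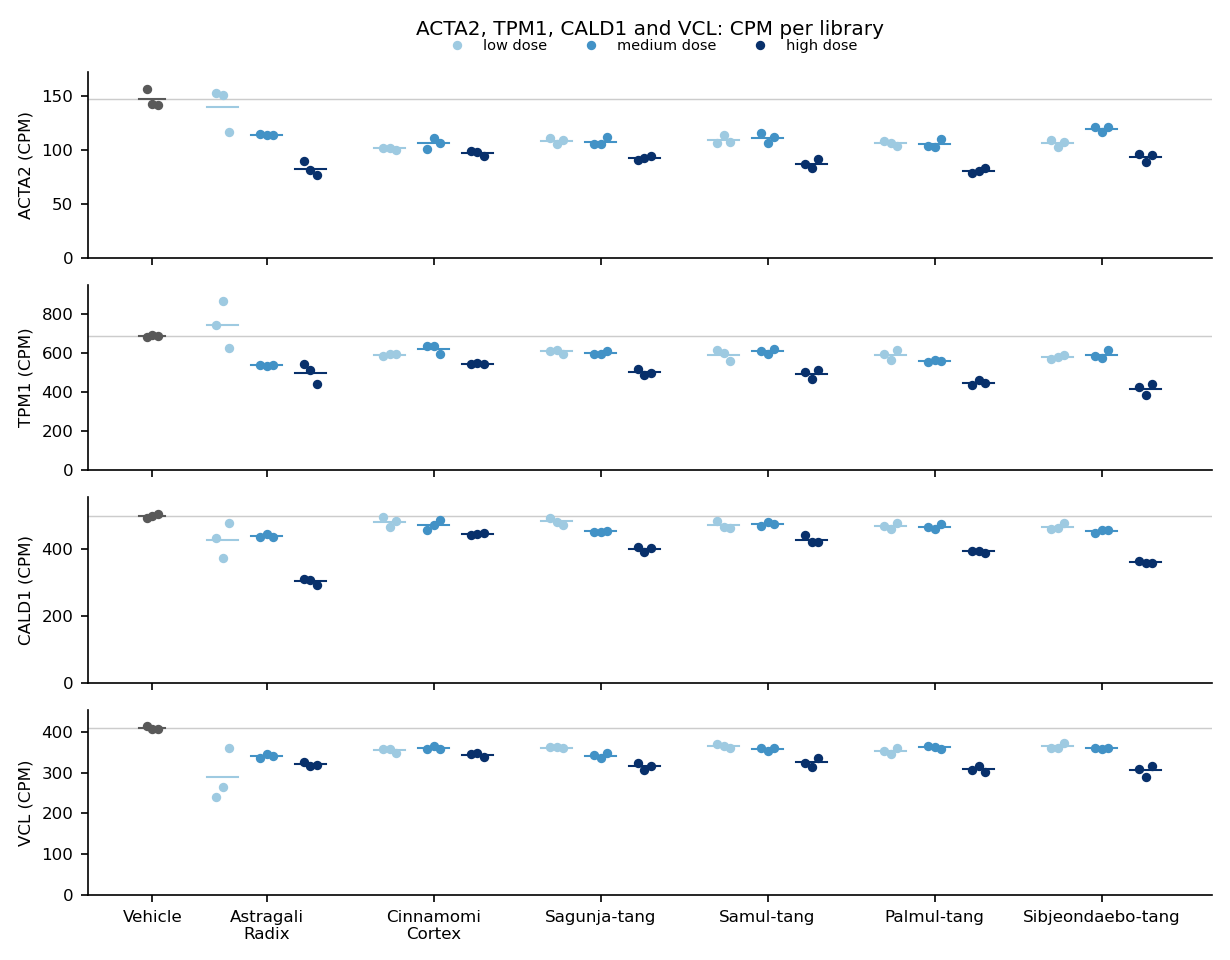
CPM of ACTA2, TPM1, CALD1 and VCL in each library, with vehicle at the left and then low, medium and high dose of each extract; short lines are group means and the grey line is the vehicle mean. In the 4 formulas every high-dose point lies below every low-dose point.

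TPM1 fell with dose in all 4 formulas. In Palmul-tang it had 439, 462 and 449 CPM at the high dose, against 598, 566 and 617 CPM at the low dose (log2 -0.40 ± 0.06, adjusted p = 2.55e-05, edgeR). In Sibjeondaebo-tang it had 424, 386 and 441 CPM at the high dose, against 569, 579.8 and 594 CPM at the low dose (log2 -0.48 ± 0.06, adjusted p = 2.94e-07, edgeR). In Sagunja-tang it had 517, 490.3 and 498 CPM at the high dose, against 612, 619.8 and 599 CPM at the low dose (log2 -0.28 ± 0.06, adjusted p = 0.00424, edgeR), and in Samul-tang 503, 469.7 and 513 CPM, against 617, 599.9 and 562 CPM (log2 -0.26 ± 0.06, adjusted p = 0.0182, edgeR). In all 4 formulas every high-dose library lay below every low-dose library. The Samul-tang call was lost when any of 4 of its 6 libraries was left out. In Cinnamomi Cortex TPM1 had 546, 549.6 and 545 CPM at the high dose, against 587, 595 and 597 CPM at the low dose (log2 -0.12 ± 0.06, not past the threshold).

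CALD1 fell with dose in 3 formulas. It had 365, 359 and 358 CPM at the high dose of Sibjeondaebo-tang, against 459, 462 and 476 CPM at the low dose (log2 -0.37 ± 0.05, adjusted p = 5.29e-08, edgeR). In Sagunja-tang it had 404, 389.8 and 403 CPM at the high dose, against 494, 480.3 and 472 CPM at the low dose (log2 -0.27 ± 0.05, adjusted p = 7.58e-05, edgeR), and in Palmul-tang 394, 394 and 389 CPM, against 468, 459 and 479 CPM (log2 -0.26 ± 0.05, adjusted p = 1.60e-04, edgeR). High and low doses did not overlap in these 3 formulas. In Samul-tang its log2 difference of -0.14 ± 0.05 did not pass with all libraries and passed without the 2 (adjusted p = 3.59e-04, edgeR).

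ACTA2 had 78.9, 80.3 and 83.6 CPM at the high dose of Palmul-tang, against 109, 106 and 104 CPM at the low dose (log2 -0.39 ± 0.06, adjusted p = 1.98e-05, edgeR), with no overlap. In Samul-tang it had 86.8, 83.1 and 91.2 CPM at the high dose, against 107, 114 and 107 CPM at the low dose (log2 -0.33 ± 0.06, adjusted p = 7.89e-04, edgeR). The smaller differences in Sagunja-tang (log2 -0.22 ± 0.06, adjusted p = 0.0273) and Sibjeondaebo-tang (log2 -0.19 ± 0.06, adjusted p = 0.021) were lost in 5 and 3 of the 6 fits that left out 1 library, by edgeR. VCL passed with all libraries in Sibjeondaebo-tang alone, where it had 310.2, 289 and 317 CPM at the high dose, against 361, 359 and 372 CPM at the low dose (log2 -0.25 ± 0.06, adjusted p = 0.00315, edgeR). Its log2 differences in the other formulas were -0.19 ± 0.06 in Sagunja-tang, -0.17 ± 0.06 in Samul-tang and -0.20 ± 0.06 in Palmul-tang, which passed without the 2 libraries (adjusted p = 3.46e-07, 2.27e-05 and 5.48e-07, edgeR).

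Deviations over genes in the Sibjeondaebo-tang libraries correlated with transcript length at Spearman -0.144, -0.160 and -0.227 at the high dose, against 0.143, 0.128 and 0.188 at the low dose. After trends with length and GC content were removed per library, the differences in Sibjeondaebo-tang were -0.50 for TPM1, -0.35 for CALD1, -0.23 for ACTA2 and -0.15 for VCL on the log2 scale, all still past the threshold.

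The other 6 genes did not pass with all libraries, though some of their differences were as large as those of ACTA2 or VCL. SRF had 55.0, 57.5 and 63.7 CPM at the high dose of Sagunja-tang, against 66.8, 69.8 and 69.7 CPM at the low dose (log2 -0.23 ± 0.09; adjusted p = 0.211, and 6.59e-05 without the 2 libraries, edgeR). In the other 4 extracts its log2 difference lay between -0.11 in Sibjeondaebo-tang and -0.07 in Samul-tang. ACTB ran from -0.15 in Sagunja-tang to 0.03 in Cinnamomi Cortex, MYL9 from -0.17 in Samul-tang to 0.03 in Sibjeondaebo-tang, and TAGLN from -0.22 in Samul-tang to -0.03 in Cinnamomi Cortex. TPM2 was -0.24 in Palmul-tang and 0.07 in Sibjeondaebo-tang, and CNN1 between -0.18 in Sagunja-tang and 0.10 in Palmul-tang.

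**Figure D4:**
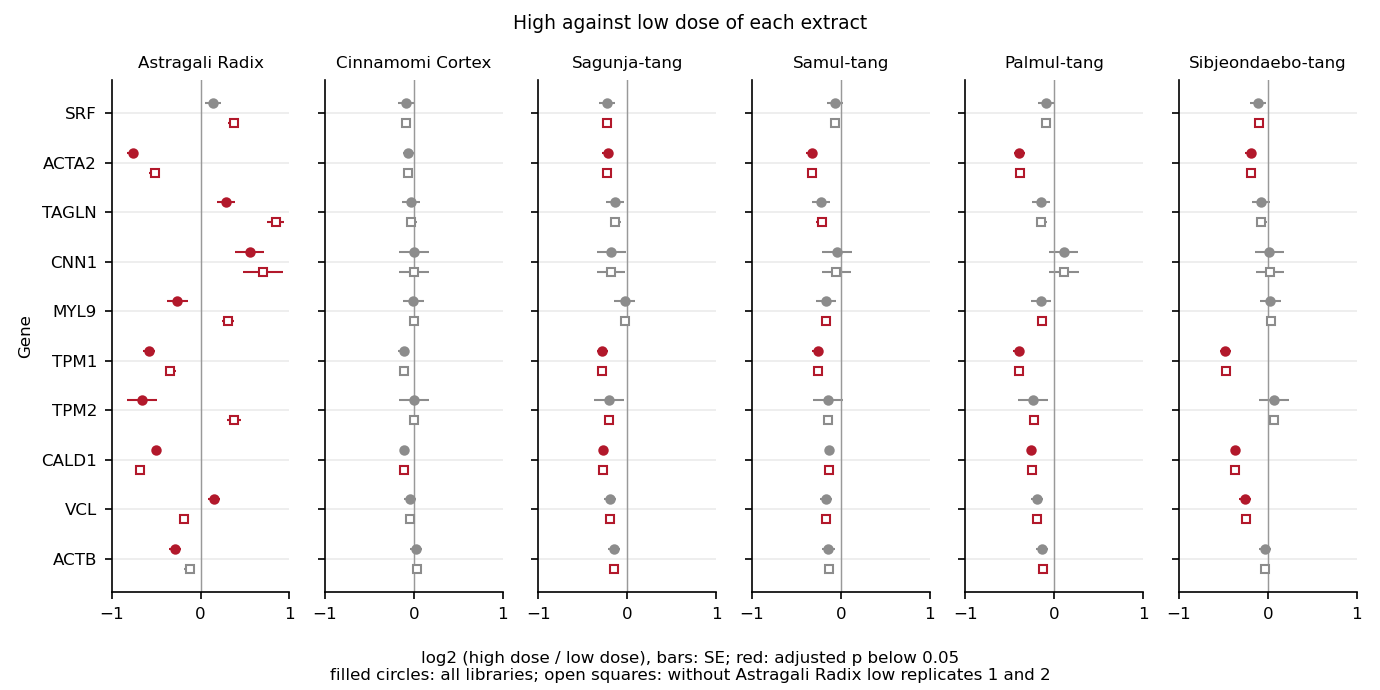
Log2 difference of the high from the low dose for each of the 10 genes, by extract, with all libraries (filled circles) and without Astragali Radix low replicates 1 and 2 (open squares); bars are standard errors and red marks an edgeR adjusted p below 0.05. Both fits nearly coincide outside Astragali Radix, where the open squares carry shorter bars and more red.

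Astragali Radix, given at 220 µg/mL as its high dose, had another pattern. Most genes changed there, with 32.6% of all genes higher and 35.6% lower than vehicle, so counts of 10 genes say little against that background: 1 rose and 5 fell with all libraries, 1 and 6 without the 2 (34.8% and 37.6% of all genes). TAGLN rose: it had 549, 492 and 489 CPM, against 337, 342 and 326 CPM in vehicle (1.52-fold, log2 0.61 ± 0.10, adjusted p = 1.26e-06, edgeR), with no overlap. ACTA2 fell to 89.7, 81.6 and 76.5 CPM, against 157, 143 and 142 CPM in vehicle (log2 -0.83 ± 0.06, adjusted p = 5.79e-16, edgeR). CALD1 fell to 309, 305 and 293 CPM, against 493, 499 and 505 CPM in vehicle (log2 -0.72 ± 0.05, adjusted p = 2.04e-18, edgeR), a larger difference than at the high dose of any of the 5 other replicated extracts, though differences between those extracts and Astragali Radix were not tested.

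ACTB (-0.50), TPM1 (-0.46) and VCL (-0.35) fell as well in Astragali Radix at the high dose. SRF had 90.6, 93.8 and 87.5 CPM, against 85.2, 82.8 and 87.1 CPM in vehicle; its 3 libraries lay above those of vehicle, but the difference did not pass (log2 0.09 ± 0.09, adjusted p = 0.376, edgeR). CNN1 (0.16), TPM2 (-0.03) and MYL9 (-0.11) did not pass with all libraries. At the medium dose of 44 µg/mL ACTB, ACTA2, TPM1, CALD1, MYL9 and VCL fell (8.81% of all genes did), with log2 differences between -0.37 for ACTA2 and -0.19 for CALD1, and SRF (-0.24) and TPM2 (-0.27) joined them without the 2 libraries, when 15.5% of all genes fell.

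At the low dose of 8.8 µg/mL the 3 Astragali Radix libraries disagreed. TPM2 had 612, 1253 and 356 CPM, against 469.9, 504 and 468 CPM in vehicle, and TAGLN 483, 489 and 280.1 CPM, against 337, 342 and 326 CPM. Replicates 1 and 2 were high for both genes and replicate 3 was below vehicle. With all libraries 2 genes, TPM2 and TAGLN, rose and 4, ACTB, CALD1, CNN1 and VCL, fell (21.6% and 19.2% of all genes rose and fell), by edgeR; with replicate 3 alone none rose and 6 fell (7.53% of all genes fell), its spread being taken from the other groups. The direction turned for 3 genes: TPM2 was 0.62 with all libraries and -0.42 without the 2, TAGLN 0.32 and -0.24, and MYL9 0.15 and -0.42.

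High against low dose in Astragali Radix carried the same disagreement. With all libraries 3 genes rose and 6 fell (31.3% and 38.7% of all genes), without the 2 libraries 5 rose and 4 fell (31.8% and 33.8%), and the median over all genes was itself -0.12 with all libraries. ACTA2 (log2 -0.76 ± 0.06 with all libraries, -0.51 ± 0.06 without), TPM1 (-0.58 ± 0.06 and -0.34 ± 0.06) and CALD1 (-0.50 ± 0.05 and -0.68 ± 0.04) fell in both fits. TAGLN (0.29 ± 0.10 and 0.85 ± 0.09) and CNN1 (0.55 ± 0.16 and 0.70 ± 0.23) rose in both. TPM2 (-0.66 ± 0.17 and 0.38 ± 0.08), MYL9 (-0.26 ± 0.11 and 0.30 ± 0.07) and VCL (0.15 ± 0.06 and -0.19 ± 0.04) passed in both fits with opposite signs. With all libraries the TAGLN call was lost without high replicate 1 (adjusted p = 0.0691, edgeR) and without low replicate 3 (0.4), and the CNN1 call without high replicate 1 (0.0668).

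The formulas were compared with each other at 500 µg/mL, which asks whether a formula that contains another acts differently on these genes; 4 pairs were fitted. With all libraries 1 gene passed over the 4 pairs, ACTA2 in Sibjeondaebo-tang against Palmul-tang (1.75% of all genes were higher): it had 96.3, 88.5 and 95.5 CPM in Sibjeondaebo-tang, against 78.9, 80.3 and 83.6 CPM in Palmul-tang (log2 0.21 ± 0.06, adjusted p = 0.0394, edgeR). That call was lost when any of 5 of the 6 libraries was left out. Without the 2 libraries, ACTA2, ACTB, MYL9 and TPM2 were higher and CALD1 lower in Sibjeondaebo-tang (12.3% of all genes higher and 11.0% lower), with log2 differences of 0.21, 0.12, 0.14, 0.20 and -0.12.

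Palmul-tang libraries carry another sample code than those of Sagunja-tang and Samul-tang, so formula and code cannot be told apart between them. In Palmul-tang against Sagunja-tang, ACTA2 (-0.19) and TPM1 (-0.15) were lower without the 2 libraries (1.98% of all genes), and in Palmul-tang against Samul-tang TPM1 (-0.14) and CALD1 (-0.12) were (4.07%). In Sagunja-tang against Samul-tang, whose libraries share a code, SRF (-0.14) and CALD1 (-0.11) were lower (8.41%). With all libraries none of the 10 passed by edgeR in Palmul-tang against Sagunja-tang (0.916% of all genes passed), Palmul-tang against Samul-tang (1.69%) or Sagunja-tang against Samul-tang (4.70%). The unadjusted p was below 0.05 for 2, 2 and 1 of the 10 genes in the same order. The share of all genes at that unadjusted threshold is not given, so these counts cannot be judged against it. The error of some genes depends on the 2 libraries: in Sagunja-tang against Samul-tang TPM2 differed by -0.03 ± 0.17 with all libraries and -0.04 ± 0.06 without them, and CALD1 by -0.10 ± 0.05 and -0.11 ± 0.03.

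The difference between 2 formulas in their high-against-low step was fitted as an interaction. None of the 10 genes passed in any of the 4 pairs with all libraries by edgeR, where 1.23%, 0.238%, 0.124% and 1.06% of all genes did, while 1, 0, 0 and 1 of 10 had an unadjusted p below 0.05 in Sagunja-tang against Samul-tang, Palmul-tang against Sagunja-tang, Palmul-tang against Samul-tang and Sibjeondaebo-tang against Palmul-tang. The counts by unadjusted p have no share of all genes beside them and are not read further. Without the 2 libraries CALD1 fell further with dose in Sagunja-tang than in Samul-tang (log2 -0.14 ± 0.04), and in Sibjeondaebo-tang than in Palmul-tang (log2 -0.11 ± 0.04). ACTA2 (log2 0.20 ± 0.06) and TPM2 (log2 0.31 ± 0.08) fell less with dose in Sibjeondaebo-tang than in Palmul-tang. The background without the 2 libraries was 6.37% of all genes passing in the first of these pairs and 15.2% in the last.

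Rehmanniae Radix Preparata had 1 library per dose, so its values carry no error. All 10 genes were below the lowest vehicle library at each dose. The share of all genes that were so is not given, so this count cannot be judged against it. Relative to the vehicle mean, SRF was at log2 -0.37, -0.33 and -0.40 at 20, 100 and 500 µg/mL, ACTB at -0.45, -0.42 and -0.57, and ACTA2 at -0.53, -0.47 and -0.69. TPM1 was at -0.22, -0.14 and -0.16, and CALD1 at -0.09, -0.04 and -0.17. CALD1 was the nearest to vehicle of the 10 genes at the low and medium doses, and TPM1 at the high dose.

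Across the 15 groups of the 5 replicated extracts other than Astragali Radix, the group means of some of the 10 genes ran closely together. CALD1 correlated with TPM1 at Pearson r = 0.95 and with VCL at 0.95, and VCL with TPM1 at 0.92. ACTB correlated with TAGLN at 0.95 and with MYL9 at 0.92, and MYL9 with TAGLN at 0.90. SRF correlated most with VCL (0.71), followed by ACTA2 (0.66), TAGLN (0.65) and CALD1 (0.64). CNN1 was near 0 with CALD1 (-0.05) and with TPM1 (0.03). These are descriptions over 15 points that share extracts, doses, sample codes and scaling.

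**Figure D5:**
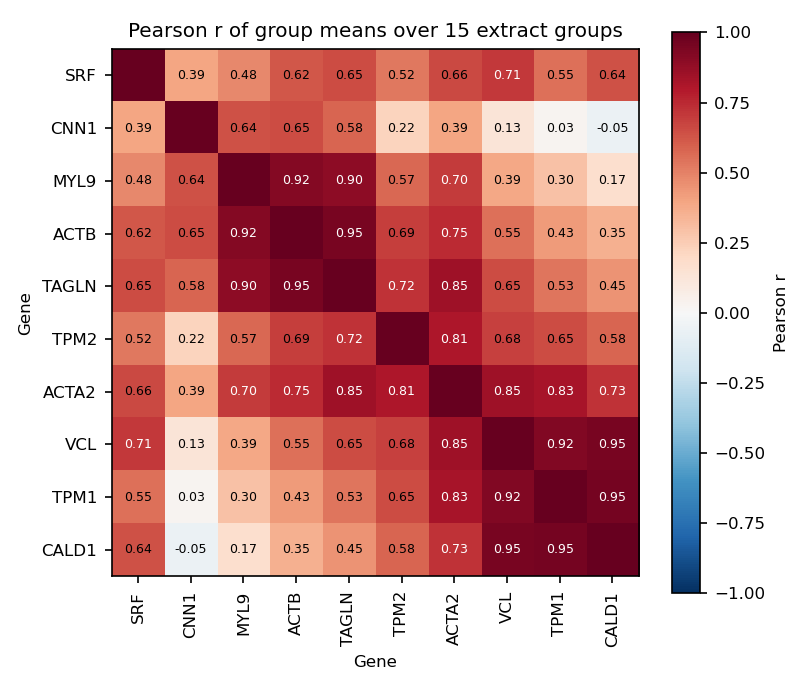
Pearson correlation of group-mean log2 CPM between each pair of the 10 genes over 15 extract-by-dose groups, vehicle and Astragali Radix left out. TPM1, CALD1 and VCL form one block of high values, ACTB, TAGLN and MYL9 another, and CNN1 is near 0 with CALD1 and TPM1.

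Among 9850 genes of at least 10 mean CPM, over 16 groups with vehicle included, the genes whose levels ran most like SRF were PLAGL2 (r = 0.956), a zinc finger factor, and MYH9 (0.950), the non-muscle myosin heavy chain. ACTA2 ran most like PRR11 (0.947) and CDCA8 (0.941), and TPM1 most like KIF20A (0.960), CALD1 (0.954) and ANLN (0.953); CDCA8, KIF20A and ANLN encode proteins of mitosis and cytokinesis. TAGLN ran most like the tubulin gene TUBA1B (0.973) and ACTB (0.964), MYL9 like ACTB (0.974), and ACTB like MYL9, WBP11 (0.970) and TUBA1C (0.969). CALD1 ran most like PPP1R12A (0.973), the targeting subunit of myosin phosphatase, and VCL like MAMLD1 (0.983). TPM2 ran most like UBE2S (0.963) and CNN1 like RTL8C (0.934). Vehicle was the highest of the 16 groups for all 10 genes, and it enters these correlations.

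Of a mixed list of other smooth muscle genes and targets of SRF with MRTF, 20 of 22 were tested. At the high dose none rose and 10 fell in Cinnamomi Cortex, 13 in Sagunja-tang, 12 in Samul-tang, 12 in Palmul-tang and 10 in Sibjeondaebo-tang, with medians between -0.40 and -0.26, beside 8.56%, 11.6%, 10.3%, 10.2% and 11.9% of all genes that fell and all-gene medians near 0. Without the 2 libraries 13, 14, 14, 14 and 14 fell, beside 18.9%, 16.9%, 16.8% and 17.8% of all genes in the 4 formulas. In Cinnamomi Cortex 32.8% of all genes passed in either direction and 16.9% rose. Of the 20 genes 1 rose, in Sagunja-tang, where 20.3% of all genes rose. TUFT1, which encodes tuftelin, fell by log2 differences between -0.78 in Samul-tang and -0.53 in Cinnamomi Cortex, and PDLIM5, a LIM-domain protein of actin filaments, between -0.38 in Sagunja-tang and -0.22 in Samul-tang. MYH10, a non-muscle myosin heavy chain (0.07 to -0.13), and CNN3, a calponin of many tissues (-0.18 to -0.04), did not pass in any of the 5. In Astragali Radix at the high dose TUFT1 (1.17), PDLIM5 (1.02) and CNN3 (0.63) rose and MYH10 fell (-1.29). The list held 6 higher and 7 lower genes of 20 there, near the 32.6% of all genes higher and 35.6% lower.

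The paralogous actins can share reads with ACTB and ACTA2, so their split is uncertain. Estimated counts were not whole in 9 of 60 libraries for ACTB, 5 for ACTG1 and 59 for ACTA2, and in 0 for ACTG2 and ACTA1. ACTG1, the other cytoplasmic actin, fell in the same 5 extracts at the high dose, between -0.55 in Samul-tang and -0.28 in Cinnamomi Cortex, and did not pass in Astragali Radix (0.07). ACTG2, enteric smooth muscle actin at 5.67 mean CPM, fell in Cinnamomi Cortex (-0.50), Sagunja-tang (-0.43), Samul-tang (-0.47) and Palmul-tang (-0.59). ACTA1, skeletal muscle actin, averaged 0.0517 CPM and was not tested. Of the 14 genes for actin isoforms, nucleators and monomer-binding proteins, 8 or 9 fell at the high dose in Cinnamomi Cortex, Sagunja-tang, Samul-tang and Palmul-tang and 2 in Sibjeondaebo-tang, with 0 to 2 higher. Of all genes 8.56% to 11.9% fell, so the Sibjeondaebo-tang count is near its background of 11.9%. Leaving out the 2 libraries, 7 fell and 4 rose in Sibjeondaebo-tang, where 17.8% of all genes fell and 20.6% rose.

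Within that list CAP1, which recycles actin monomers, fell in Sagunja-tang (-0.35), and ARPC2 (-0.23) and ACTR3 (-0.33), subunits of the filament-branching Arp2/3 complex, did too. ARPC5, another subunit, did not pass in Sagunja-tang (-0.02) and rose in Sibjeondaebo-tang (0.18). In Astragali Radix at the high dose 10 of the 14 rose, among them ARPC5 (1.00), CAP1 (0.76), ARPC2 (0.67) and ACTR3 (0.57), while 32.6% of all genes rose there. ACTB itself fell in that group, as given above.

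Of 17 adhesion and crosslinking genes, 8 fell in Cinnamomi Cortex, 10 in Sagunja-tang, 9 in Samul-tang, 10 in Palmul-tang and 8 in Sibjeondaebo-tang at the high dose, and none rose; of all genes 8.56%, 11.6%, 10.3%, 10.2% and 11.9% fell. With the 2 libraries left out 10, 15, 13, 15 and 10 fell, beside 18.9%, 16.9%, 16.8% and 17.8% of all genes in the 4 formulas. In Cinnamomi Cortex 32.8% of all genes passed in either direction. At most 1 of the 17 rose, beside 16.9% of all genes in Cinnamomi Cortex and 20.3%, 18.8%, 19.6% and 20.6% in the formulas. TNS1 (tensin, a linker of integrins to actin) fell in the 4 formulas, between -0.60 in Sibjeondaebo-tang and -0.48 in Sagunja-tang, and by -2.37 in Astragali Radix. LIMA1, which stabilises filaments, fell in Sagunja-tang (-0.28) and Sibjeondaebo-tang (-0.26), and PARVA, a partner of integrin-linked kinase, in Cinnamomi Cortex (-0.17), Sagunja-tang (-0.29) and Palmul-tang (-0.24). The integrin gene ITGB1 did not pass in these 5 extracts, with log2 differences between -0.07 and 0.03, and rose in Astragali Radix (0.44).

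Few immediate early targets of the ELK1 branch rose in the 5 extracts other than Astragali Radix, near the share of all genes that did. More of them fell than rose, a larger share than over all genes, though the list holds 10 genes alone. Against vehicle at the high dose, 1 or 2 of the 10 immediate early genes rose and 2 to 4 fell in each of the 5 extracts, with medians between -0.20 in Sagunja-tang and 0.01 in Cinnamomi Cortex. In the order of the adhesion genes above, 7.70%, 11.2%, 9.37%, 10.0% and 11.2% of all genes rose and 8.56%, 11.6%, 10.3%, 10.2% and 11.9% fell. Without the 2 libraries 4, 5, 3, 4 and 4 of the 10 fell and 1, 1, 1, 2 and 2 rose, in the same order. Of all genes 18.9%, 16.9%, 16.8% and 17.8% then fell in the 4 formulas, and 32.8% passed in either direction in Cinnamomi Cortex. In the 5 extracts 16.9%, 20.3%, 18.8%, 19.6% and 20.6% of all genes rose. In Astragali Radix with all libraries 8 rose and 2 fell, beside 32.6% of all genes higher and 35.6% lower, with a median of 1.12. DUSP5, an ERK phosphatase (4.57), FOS (2.89), FOSB (1.88) and MCL1, a survival factor (0.92), were among the 8. Between high and low dose DUSP5 rose in Cinnamomi Cortex (0.30), Palmul-tang (0.30) and Sibjeondaebo-tang (0.59), while FOS, FOSB and MCL1 did not pass in any of the 5 extracts.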

How the data were processed

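RNA sequencing of 57 libraries in 19 groups and of 3 single libraries was used. The deposited table holds expected counts (RSEM's estimated counts per gene) that the authors made from the reads; the submitters' processing notes name FastQC 0.11.9, Trim Galore 0.6.5, STAR 2.7.3a, RSEM 1.3.3 and hg38, and the annotation release and strand setting are not given in the sources used here. Of its 279 columns 60 were used and 219 were not. Values were rounded, since 90.85% were whole within 1e-09. The 57 libraries were fitted together in edgeR 4.0.16 (R 4.3.3; TMM, filterByExpr, 1 mean per group, quasi-likelihood F test, Benjamini-Hochberg over 17676 genes, adjusted p below 0.05, no minimum fold, 32 comparisons). SE is the log2 difference divided by the square root of F. CPM are on the TMM scale, except those of the cell type markers and of ACTG2 and ACTA1, which are scaled to library totals alone. Correlations use log2 CPM with a prior count of 2.

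The 10 genes and the 5 pathway lists (83 genes, 80 tested) were chosen with earlier results of these data known. The results of 1 of these lists are not reported here. All 10 are named, and of each list up to 4 genes with the smallest adjusted p in any high-against-low comparison, plus the paralogs ACTG1, ACTG2 and ACTA1; the likeness search names the 3 genes of at least 10 mean CPM with the highest Pearson correlation, of which some are printed. Alternatives were RLE scaling, no filter, a block by replicate number, DESeq2 1.42.0, compared groups only, removal of length and GC trends, omission of Astragali Radix low replicates 1 and 2, and omission of each library. CArG boxes were searched by letters in the RefSeq promoter table.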

Additional observations from a re-analysis of the deposited data

Results flagged for a closer look

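SRF and TAGLN at the high dose of Astragali Radix stood out because every library lay on the other side of vehicle than every high-dose library of the 5 other replicated extracts. TAGLN was 0.61 on the log2 scale in Astragali Radix, and SRF 0.092, a difference from vehicle that did not itself pass (edgeR adjusted p = 0.376). The difference between Astragali Radix and the other extracts was not tested, the Astragali Radix dose is 220 µg/mL and the others 500 µg/mL, and all comparisons share the 3 vehicle libraries.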

How the results depend on the processing

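Counts are of the 10 genes called; with all libraries they are given in the report. Without Astragali Radix low replicates 1 and 2, the count became 9 for Sibjeondaebo-tang medium dose against vehicle, 10 for its low dose against vehicle, 1, 7, 6 and 7 for high against low dose in Cinnamomi Cortex, Sagunja-tang, Samul-tang and Palmul-tang, 2 each for Sagunja-tang against Samul-tang, Palmul-tang against Sagunja-tang and Palmul-tang against Samul-tang, and 5 for Sibjeondaebo-tang against Palmul-tang at the high dose. It became 1 and 3 for the dose effects of Sagunja-tang against Samul-tang and Sibjeondaebo-tang against Palmul-tang, and 35, 11 and 4 in all for high against low dose, between formulas and for dose effects. With only the compared groups in the fit, counts were 10 for Sibjeondaebo-tang at the medium and 10 at the low dose and 0 for Astragali Radix at the low dose against vehicle, 3, 8, 7 and 8 for high against low dose in Astragali Radix, Sagunja-tang, Samul-tang and Palmul-tang, 2, 2, 2 and 3 for the 4 pairs of formulas, 2 for the dose effect of Sibjeondaebo-tang against Palmul-tang, and 9 and 2 in all for formulas and dose effects. In that fit 0 of 15715 genes passed at the low dose of Astragali Radix, so the count of 0 there is not particular to the 10 genes. For Sibjeondaebo-tang 3755 of 15657 genes passed in either direction at the medium and 4837 of 15759 at the low dose. In the fit of all groups 1018 and 1699 of 17676 did. For high against low dose 6475 of 15361, 2327 of 16234, 833 of 16169 and 2423 of 16166 passed in the same order. For the 4 pairs it was 2723 of 16217, 783 of 16100, 1537 of 16180 and 3129 of 15927. For that dose effect 2367 of 16620 passed. With length and GC trends removed the counts of the 10 genes were 8 for Sibjeondaebo-tang medium, 1, 5 and 4 for high against low dose in Cinnamomi Cortex, Sagunja-tang and Samul-tang, 2, 1, 1 and 2 for the 4 pairs and 6 in all. Of 17676 genes, 2378 then passed at that medium dose and 220, 1347 and 579 for high against low dose. For the 4 pairs 1695, 385, 683 and 2279 passed. DESeq2 gave 7 for Sibjeondaebo-tang medium and 2 for Sibjeondaebo-tang against Palmul-tang (2 in all between formulas), where 1287 of 13906 and 1272 of 14591 genes passed. With no filter, 1 passed for high against low dose in Samul-tang and 0 between formulas, for Sibjeondaebo-tang against Palmul-tang and in all. Of 37987 genes, 267 passed for that dose comparison and 922 for Sibjeondaebo-tang against Palmul-tang. Fewer genes or libraries enter several of these fits; the cause of the remaining differences was not tested.

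Signs turned in Astragali Radix alone. Without both low replicates, log2 differences at the low dose were -0.24 for TAGLN, -0.42 for MYL9 and -0.42 for TPM2, and for high against low dose 0.30 for MYL9, 0.38 for TPM2 and -0.19 for VCL. Leaving out single low replicates, MYL9 ran from -0.24 to 0.36 and TPM2 from -0.0027 to 0.94 at the low dose, and MYL9 from -0.48 to 0.12 for high against low dose. With length and GC trends removed MYL9 was -0.17 and 0.00297 in these 2 comparisons. Of 320 gene values, 318 kept direction and side of the threshold with RLE, 304 with DESeq2, 317 with the block, 281 with no filter, 276 with trends removed, 251 with compared groups only and 248 without the 2 libraries.

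Leaving out 1 library at a time, calls against vehicle at the high dose numbered 6 in Astragali Radix, 8 to 9 in Cinnamomi Cortex, 9 to 10 in Sagunja-tang, 9 in Samul-tang, 10 in Palmul-tang and 8 to 9 in Sibjeondaebo-tang (51 to 54 in all). In the same order they numbered 5 to 6, 5 to 6, 5 to 6, 4, 3 to 6 and 1 to 3 at the medium dose (27 to 37 in all), 4 to 6, 5 to 7, 4 to 6, 5 to 7, 3 to 5 and 4 to 6 at the low dose (28 to 52), and 6 to 8, 0, 2 to 3, 1 to 2, 3 and 3 to 4 for high against low dose (18 to 24). Between formulas they numbered 0, 0, 0 and 0 to 1 (0 to 1 in all), and for dose effects 0. The share of all genes called in these fits is not given here. Deviations of libraries correlated little by replicate number, at a median r of 0.009 for the same number and -0.005 for other numbers. Still, 38 of 57 libraries lay closest to their own number out of 3, and whether the numbers pair the libraries was not tested. A replicate block gave 5, 7 and 5 calls at the low dose in Astragali Radix, Sagunja-tang and Sibjeondaebo-tang, where 7235, 2513 and 1748 of 17676 genes passed. It left every other count of members as it was. CNN1 was lost in Astragali Radix (adjusted p = 0.0535) and Sibjeondaebo-tang (0.0506) and VCL gained in Sagunja-tang (0.0488), by edgeR.

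CNN1, at a few CPM, is limited by depth, and the calls between formulas depend on whether the 2 libraries enter the estimate of the spread. Extract and sample code cannot be told apart against vehicle, nor formula and code in Palmul-tang against Sagunja-tang or Samul-tang.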
